A study of Mus musculus with 6 samples.

Results

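The 10 glycolytic enzyme genes described here were chosen by symbol from the 27098 genes of a count table of cultured mouse ovary. They are Hk1, Hk2, Pfkl, Pfkp, Aldoa, Gapdh, Pgk1, Eno1, Pkm and Ldha, which run from the first phosphorylation of glucose to the making of lactate, and each of the 10 was found and passed the filter on low counts (17475 genes tested). Whole ovaries of newborn mice 3 days after birth were kept in DMEM/F12 medium with antibiotics. In the PRP group, 3 RNA sequencing libraries came from ovaries given 2% platelet-rich plasma (PRP) for 2 h, and in the control group 3 libraries came from ovaries in the same medium without it. PRP is a plasma fraction rich in platelets and their growth factors. The series text calls it human and thrombin-activated, and no group with thrombin alone or with another plasma is among the samples. Whether the 3 libraries of a group come from different animals or cultures is not stated, so each p-value refers to the variation among these libraries, and that variation may be technical.

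Glycolysis splits glucose into pyruvate in the cytosol and yields ATP and NADH. Hexokinase and phosphofructokinase set the pace at the top, a reversible middle runs from aldolase to enolase, and pyruvate kinase and lactate dehydrogenase close the route. In the ovary, oocytes are known to use glucose poorly and to live largely on pyruvate that the surrounding granulosa cells make by glycolysis. Growth factor signalling through PI3K and AKT, which the study's title names, and the hypoxia-inducible factor HIF-1 are both known to raise transcripts of these enzymes.

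No glycolytic enzyme transcript passed the test for a change after 2 h of PRP, and without pairing of libraries none of the 17475 genes tested did. All 10 had a log2 fold change above 0, as did 50.4% of all genes. The values were small, from 0.02 for Ldha to 0.16 for Gapdh and Eno1, and 6 of the 10 remained above 0 when PRP 3 or control 2 was left out. With the replicate number as a block, 8, 8 and 10 remained above 0 when both libraries numbered 1, 2 or 3 were left out. Eno1 was the single enzyme whose 3 PRP libraries all lay above the 3 control libraries, as was so for 4.34% of all genes. Per length of transcript Aldoa, Pkm and Ldha were the most abundant of the 10 under each of 3 transcript lengths tried. The replicate number of a library took a larger share of the variance than the treatment for 9 of the 10. Chance gives 40% to the replicate number and 20% to the treatment, and the medians over all genes tested were 55.6% and 11.3%.

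Library totals ran from 36037111 to 36568367 counts in PRP and from 35568000 to 35825931 counts in control. A single enzyme held between 560 counts (Pfkp in PRP 2) and 23480 counts (Pkm in PRP 3) in a library. Of the ovarian marker lists, 10 of 10 oocyte genes and 10 of 10 pregranulosa genes reached 1 CPM (the count scaled to a fixed TMM-normalised library size). Control 3 stood apart by its red blood cell transcripts: haemoglobin genes took 0.122% of its counts, against 0.0107% to 0.0222% in PRP libraries and 0.0106% and 0.0142% in controls 1 and 2. Mitochondrially encoded genes took 1.77% to 2.05% of counts in PRP and 1.81% to 1.9% in control.

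Levels of different genes were compared on a TPM scale, which divides counts by the longest annotated transcript of each gene and scales every library to the same total. Aldoa, whose enzyme splits fructose 1,6-bisphosphate into a pair of triose phosphates, averaged 948.8 ± 32.0 in PRP and 893.7 ± 57.1 in control (SD, n = 3). Pkm, the pyruvate kinase of most tissues, averaged 717.0 ± 105.5 in PRP and 702.8 ± 90.1 in control, and Ldha, which turns pyruvate into lactate, 492.7 ± 33.7 and 493.6 ± 57.4. Next came enzymes of the middle of the pathway, though not Gapdh. Eno1, the enolase that forms phosphoenolpyruvate, averaged 297.1 ± 7.35 in PRP and 270.2 ± 14.7 in control, and Pgk1, which makes the first ATP of the route, 266.7 in PRP (libraries 255.4 to 274.8) and 264.6 in control (254.1 to 280.5). The hexokinases and phosphofructokinases among the 10 lay lower on this length. Gpi1, the isomerase that stands between them and is not among the 10, averaged 311.4 ± 6.97 in PRP and 302.4 ± 16.0 in control. Pfkl, the liver-type phosphofructokinase, averaged 65.5 ± 4.32 in PRP and 60.2 ± 6.57 in control, and Hk1, a hexokinase found in most tissues, 35.9 ± 3.19 and 35.7 ± 9.08. Hk2, the hexokinase of muscle and fat, averaged 13.9 ± 3.04 and 13.7 ± 2.46. Eno1 and Pgk1 were the only neighbours in this order of 10 whose ranges over the 6 libraries overlapped, and Eno1 was the higher of them within each library. Among all genes tested with a length, 99.4% had a lower mean level than Aldoa, 99.1% lower than Pkm and 98.6% lower than Ldha.

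The order depended on the length used. With the median transcript length of each gene, the levels of 6 of the 10 (Hk1, Pfkl, Pfkp, Aldoa, Gapdh and Pgk1) moved by over 1.5 times. Pkm, at 895.2 in PRP and 867.2 in control, then stood above Aldoa, at 633.5 in PRP and 589.7 in control. Pfkl, at 136.5 in PRP and 123.8 in control, stood above Pgk1, at 105.2 in PRP and 103.2 in control. Hk1 averaged 88.2 in PRP and 86.5 in control, and Hk2 became the lowest of the 10 in place of Pfkp.

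Gapdh and Pfkp also moved with the longest coding transcript. Gapdh, the dehydrogenase that makes the NADH of glycolysis and is a common housekeeping standard, averaged only 25.1 ± 2.86 on the TPM scale in PRP and 22.9 ± 4.24 in control, under Tpi1 just before it in the pathway (391.1 and 359.2) and Pgk1 just after it. With the longest coding transcript in place of the longest transcript (1420 against 3289 bases, chosen after seeing the data) its means were 53.6 in PRP and 48.9 in control. Pfkp, the platelet-type phosphofructokinase, averaged 6.38 in PRP and 6.16 in control with its longest transcript (8681 bases), and 12.3 in PRP and 11.9 in control with its longest coding transcript (4145 bases).

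The sequence of Gapdh is shared widely. In the GENCODE M21 transcripts of GRCm38, 182 other genes, 173 of them pseudogenes, held a stretch of at least 100 bases with at least 90% identity to its coding transcript. Stretches of at least 97% identity covered 88% of that transcript. At 97% identity 85.6% of Eno1, 68.8% of Pgk1 and 65.5% of Pkm were covered, but 0% of Hk2, Pfkl, Aldoa and Ldha. At 90% identity, matches covered 97% of Aldoa (6 other genes) and 55.1% of Ldha (15 other genes), with a highest identity of 92.7% and 96.4%. Of the 177 genes that matched Gapdh over 300 bases or more, the count table holds 2, and for Eno1 it holds Eno1b alone out of 6. How reads that fit several places were counted is not given in the sources used here, and its part in the low Gapdh level was not tested. Counts of Gapdh, Eno1, Pgk1, Pkm, Aldoa and Ldha are therefore uncertain in level. Hk1, Pfkp, Pkm and Ldha also overlap another gene of the table (Hk1os, Pitrm1, LOC115487221 and Gm39011), and the strand setting of the counting is not given either.

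**Figure D1:**
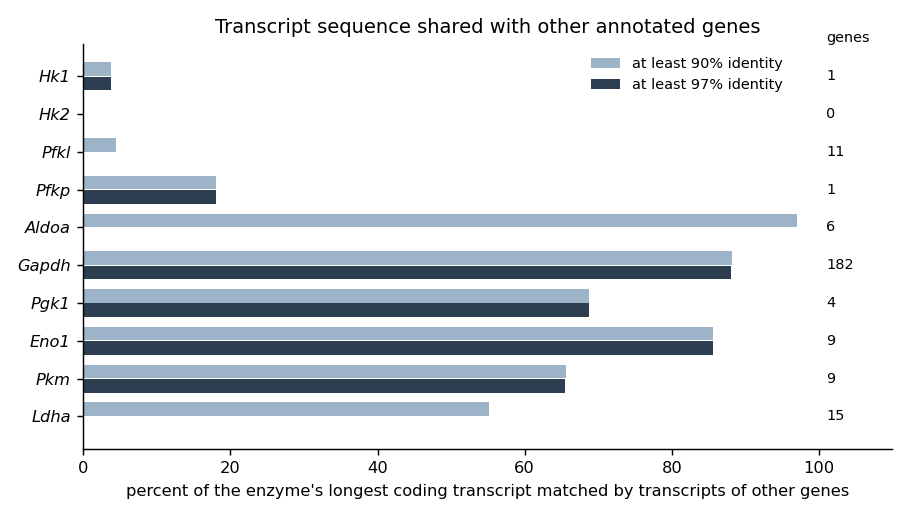
Share of each enzyme's longest coding transcript (x axis, percent) that transcripts of other annotated genes match over at least 100 bases, at 90% identity (pale bars) and 97% identity (dark bars), with the number of genes that match at 90% identity at the right edge. Gapdh has 182 such genes, and its dark bar reaches 88%, whereas the dark bars of Aldoa and Ldha are at 0%.

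Most steps of the pathway have several isoforms, and their shares on the TPM scale are given here by group. Hk1 made up 66.6% ± 3.93 of hexokinase transcripts in PRP and 65.8% ± 2.34 in control (SD, n = 3). Phosphofructokinase was split between Pfkl, at 51.6% ± 1.6 in PRP and 50.1% ± 2.63 in control, and the muscle type Pfkm, which the 10 do not include, at 43.4% ± 1.98 and 44.8% ± 2.45. That split held for the longest transcript and the longest coding transcript but not for the median length, added after seeing the data. With the median length Pfkl held 75.2% ± 0.36 in PRP and 74.1% ± 1.93 in control, Pfkm 11.9% ± 0.863 and 12.5% ± 1.03, and Hk1 81.3% ± 3.05 and 80.9% ± 1.6 of its step. Aldoa held 99.2% of aldolase transcripts in PRP and 99.3% in control. Lactate dehydrogenase was mostly the other isoform, Ldhb, known as the heart type. Ldha made up 18.4%, 20.4% and 22.4% of its transcripts in PRP 1, 2 and 3, and 19.7%, 20.2% and 26.0% in control 1, 2 and 3. The highest share was in control 3, and the groups overlapped. With the median length the Ldha share was 28.4% ± 2.5 in PRP and 30.4% ± 4.29 in control. In a two-sided exact permutation test of 5 isoform shares (Hk1, Pfkl, Aldoa, Eno1 and Ldha), p ran from 0.4 to 1 (Benjamini-Hochberg adjusted over the 5, p = 1). With 3 libraries against 3 the smallest p this test can give is 0.1, so it cannot pass 0.05.

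**Figure D2:**
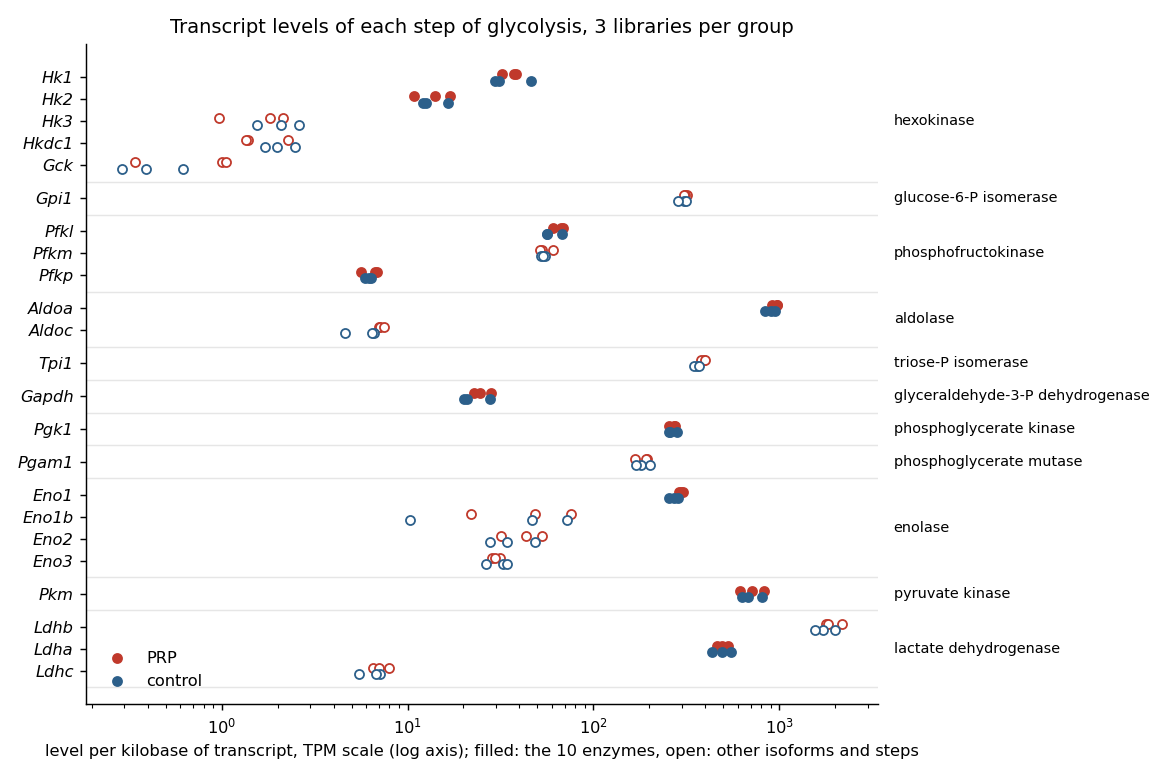
Level per kilobase of transcript on the TPM scale (x axis, log scale) of the isoforms at each step of glycolysis, top to bottom in pathway order, with 1 point per library (PRP red, control blue; filled for the 10 enzymes, open for the rest). Ldhb lies to the right of Ldha in every library, and Gapdh lies left of its neighbours Tpi1 and Pgk1.

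The comparison of PRP with plain medium asks which transcripts respond within 2 h. In edgeR's quasi-likelihood test with Benjamini-Hochberg adjustment, 0 of the 10 enzymes had an adjusted p under 0.05, and 0% of all 17475 genes did. At an unadjusted p under 0.05 there was 1 of the 10, against 3.19% of all genes. DESeq2 and limma-voom also called 0 of the 10. The share of all genes with a log2 fold change above 0 was 50.4%, beside 10 of 10 enzymes. The median log2 fold change was 0.07 for the enzymes and 0.0013 for all genes. These genes share libraries and vary together, so the 10 are not separate observations.

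At the head of the pathway, the group means of the hexokinases differed by less than the spread between libraries. Hk1 (Entrez 15275, chromosome 10, 62268855 to 62379920 on GRCm38, minus strand) had 51.3, 44.0 and 53.2 CPM in PRP 1, 2 and 3, against 42.1, 39.6 and 63.1 CPM in control 1, 2 and 3. Control 3 was the highest of the 6 and the other controls the lowest. Its log2 fold change was 0.04 (95% interval -0.38 to 0.45, adjusted p = 1 in edgeR), with means of 49.5 ± 4.88 CPM in PRP and 48.3 ± 12.9 CPM in control (SD, n = 3). Hk2 (Entrez 15277, chromosome 6, 82725025 to 82774454, minus strand) had 19.4 to 30.4 CPM in PRP and 21.0 to 29.2 CPM in control, and a log2 fold change of 0.05 (-0.38 to 0.48).

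Phosphofructokinase commits sugar to glycolysis. Pfkl (Entrez 18641, chromosome 10, 77986947 to 78009807, minus strand) had 82.9, 72.0 and 81.3 CPM in PRP 1, 2 and 3, against 66.2, 65.8 and 80.9 CPM in control 1, 2 and 3. Controls 1 and 2 lay below every PRP library and control 3 among them. The log2 fold change of Pfkl was 0.15 (-0.07 to 0.37), that of Pfkp (Entrez 56421, chromosome 13, 6579874 to 6649060, minus strand) 0.08 (-0.20 to 0.36) and that of Pfkm 0.07 (-0.12 to 0.26), each with an adjusted p of 1 in edgeR.

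Aldoa and Eno1 stand at the start and the end of the reversible middle of the route. Aldoa (Entrez 11674, chromosome 7, 126795234 to 126800994, minus strand) had 482.8, 449.6 and 487.5 CPM in PRP 1, 2 and 3, against 437.7, 404.1 and 470.4 CPM in control 1, 2 and 3. Only control 3 reached into the PRP range, and the log2 fold change was 0.11 (-0.04 to 0.27). Eno1 (Entrez 13806, chromosome 4, 150236708 to 150248879, plus strand) had 198.9, 191.9 and 190.9 CPM in PRP 1, 2 and 3, against 173.8, 161.3 and 184.1 CPM in control 1, 2 and 3. Its groups did not overlap, as was so for 4.34% of all genes with PRP above control. None of the 10 had all PRP libraries below all controls, beside 4.87% of all genes. The log2 fold change of Eno1 was 0.16 ± 0.06 (SE; 0.02 to 0.31), with an unadjusted p of 0.0314 and an adjusted p of 1 in edgeR.

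Eno1b, a close copy of Eno1 that the table counts as a gene of its own, varied far more between libraries. It had 28.0, 12.5 and 44.4 CPM in PRP 1, 2 and 3, against 26.5, 5.77 and 41.5 CPM in control 1, 2 and 3, so that the libraries numbered 2 were lowest and those numbered 3 highest in both groups. Summed with Eno1, the level was 226.9, 204.5 and 235.2 CPM in PRP and 200.2, 167.1 and 225.6 CPM in control, and the groups overlapped. The difference of mean log2 levels was 0.18 for the sum and 0.17 for Eno1 alone (exact permutation p for the sum = 0.2, two-sided; the sum was added after seeing the data).

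Gapdh (Entrez 14433, chromosome 6, 125161852 to 125166467, minus strand) had 30.0, 25.6 and 24.3 CPM in PRP 1, 2 and 3, against 28.8, 21.3 and 21.2 CPM in control 1, 2 and 3. Control 1 lay among the PRP libraries, and the log2 fold change was 0.16 (-0.16 to 0.49). Pgk1 (Entrez 18655, chromosome X, 106187100 to 106203699, plus strand) ran from 148.4 to 161.7 CPM in PRP and from 144.9 to 163.8 CPM in control. Its log2 fold change was 0.04 (-0.12 to 0.19).

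At the end of the pathway the replicate number stood out, as it did for Hk2 at the head. Pkm (Entrez 18746, chromosome 9, 59656576 to 59679372, plus strand) had 562.2, 473.3 and 650.3 CPM in PRP 1, 2 and 3, against 520.3, 476.3 and 624.3 CPM in control 1, 2 and 3. Ldha (Entrez 16828, chromosome 7, 46842274 to 46855627, plus strand) had 286.9, 265.9 and 311.3 CPM in PRP 1, 2 and 3, against 281.6, 247.7 and 320.3 CPM in control 1, 2 and 3. For both genes the libraries numbered 2 were the lowest and those numbered 3 the highest within PRP and within control. The log2 fold changes were 0.06 (-0.26 to 0.37) for Pkm and 0.02 (-0.20 to 0.25) for Ldha. The table counts all Pkm transcripts together, so the M1 and M2 splice forms were not analysed here.

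**Figure D3:**
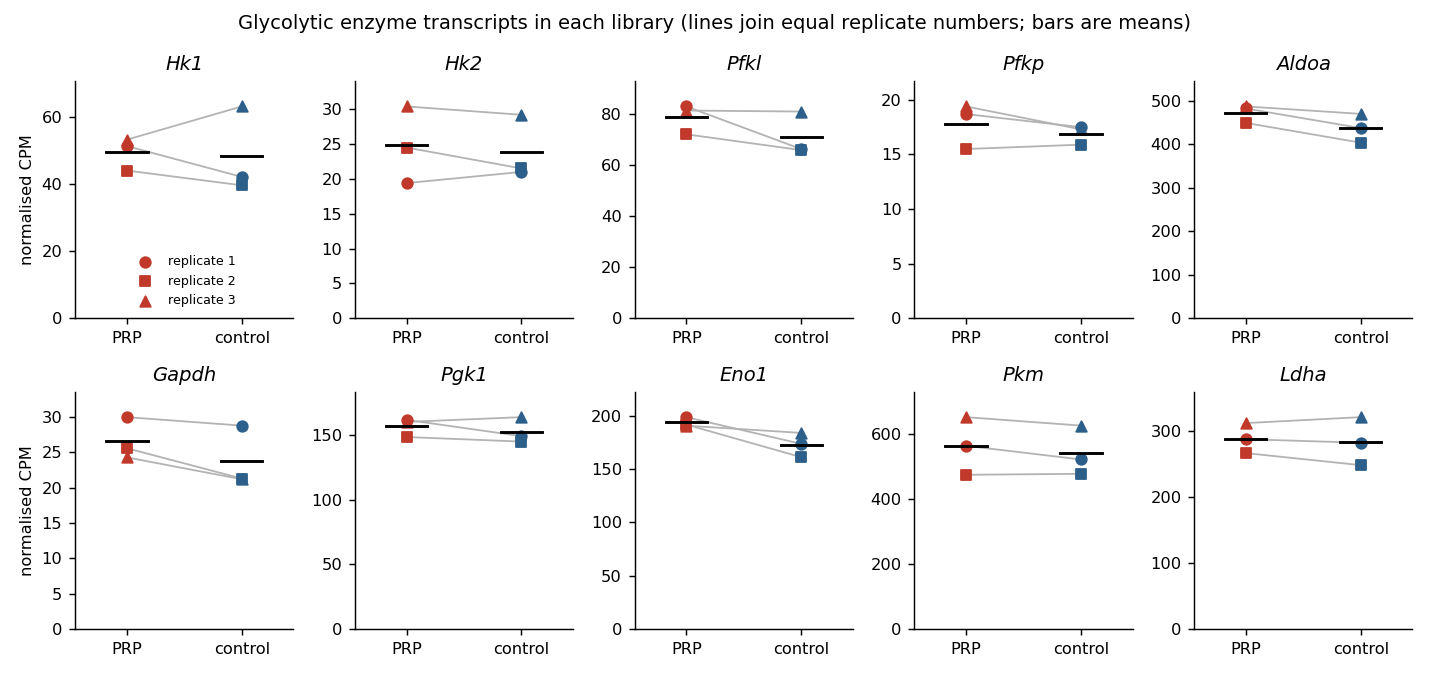
Normalised CPM (y axis, from 0) of each enzyme in the 3 PRP and 3 control libraries, with symbols for replicate numbers, grey lines between equal numbers and black bars at group means. The groups are apart in the Eno1 panel alone, and in the Pkm and Ldha panels triangles (replicate 3) lie above squares (replicate 2) on both sides.

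Of the variance in log2 CPM over the 6 libraries, the replicate number took 95.8% for Pkm, 93.3% for Ldha and 92.5% for Hk2, and the treatment took 2.31%, 1.35% and 0.8%. Eno1 was the reverse, with 16.0% for the replicate number and 67.0% for the treatment. For Aldoa the values were 55.6% and 38.4%. The median over the 10 enzymes was 74.6% for the replicate number and 8.91% for the treatment, beside 55.6% and 11.3% over all genes tested, where chance gives 40% and 20%. No label says what libraries of the same number share.

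Between libraries of the same number, 9 of the 10 enzymes were higher in PRP in pair 1, 8 in pair 2 and 7 in pair 3. The median log2 differences were 0.11, 0.14 and 0.05. The lowest single differences were those of Hk2 in pair 1 (-0.12), Pfkp in pair 2 (-0.04) and Hk1 in pair 3 (-0.25). Pfkl, Aldoa, Gapdh and Eno1 were higher in PRP in all 3 pairs, as were 16.8% of all genes. With the replicate number as a block in edgeR, 0 of the 10 enzymes passed, beside 0.12% of all genes (21), and 3 had an unadjusted p under 0.05, beside 11.2% of all genes. Those were Eno1 (0.17 ± 0.05 SE, adjusted p = 0.211), Aldoa (0.12 ± 0.04, adjusted p = 0.294) and Pfkl (0.15 ± 0.06, adjusted p = 0.363).

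**Figure D4:**
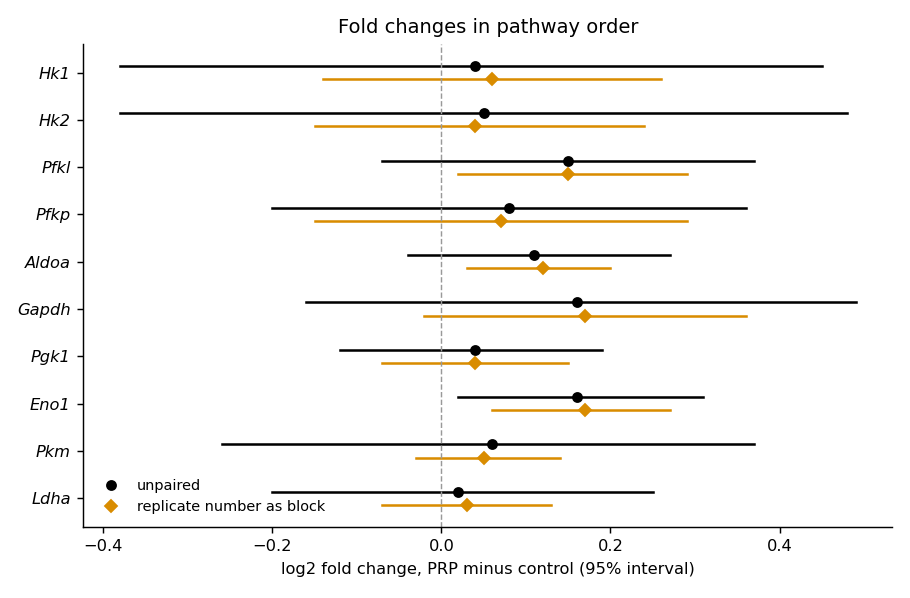
Log2 fold change, PRP minus control, of the 10 enzymes in pathway order with 95% intervals, without pairing (black) and with the replicate number as a block (orange). All points lie right of 0, and the unpaired interval lies wholly above 0 for Eno1 alone (0.02 to 0.31).

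Summed, the 10 enzymes took 0.191%, 0.172% and 0.198% of counts in PRP 1, 2 and 3, against 0.174%, 0.161% and 0.194% in control 1, 2 and 3. The mean was 0.187% ± 0.0136 in PRP and 0.177% ± 0.0165 in control (SD, n = 3), a difference smaller than the SD of either group. These SDs include the variation between replicate numbers, and at each replicate number the share was higher in PRP than in control. Leaving out control 2 or PRP 3 brought the difference of 0.0105 percentage points to 0.00281 or 0.00485, and turned the log2 fold changes of Hk1, Hk2, Pkm and Ldha below 0. Leaving out PRP 2 or control 3 brought it to 0.018 or 0.0192. The summed level of 9 stromal fibroblast markers was likewise lowest in library 2 of each group, at 9717.5, 8084.1 and 9741.0 CPM in PRP 1, 2 and 3 and 8224.4, 7520.3 and 9275.2 CPM in control 1, 2 and 3. So was that of 7 mural and smooth muscle markers, at 235.7 to 296.9 CPM in PRP and 194.1 to 314.3 CPM in control, with all markers of both lists detected. The 10 oocyte markers summed to 2166.7 to 3486.2 CPM in PRP and 1944.3 to 3093.6 CPM in control, and the libraries numbered 2 were again the lowest within each group. The 7 surface epithelium markers summed to 185.8 to 214.3 CPM in PRP and 163.7 to 178.3 CPM in control, without overlap. The 10 pregranulosa markers summed to 1297.9 to 1454.5 CPM in PRP and 1382.9 to 1408.8 CPM in control, 7 endothelial markers to 297.9 to 374.1 and 311.8 to 364.1, and 8 leukocyte markers to 59.3 to 73.2 and 54.1 to 88.6. Skeletal muscle markers (4 of 7 at 1 CPM or more) summed to 34.7 to 40.4 CPM in PRP and 30.6 to 38.7 CPM in control, and adipocyte markers (2 of 7) to 4.03 to 5.11 and 3.82 to 6.33. The endothelial, leukocyte, skeletal muscle and adipocyte sums were also lowest in the libraries numbered 2 within each group. Those of the pregranulosa, surface epithelium and erythroid lists were not lowest there in both groups. No marker of the 10 lists was at 0 in every library. The part of these cell types in the enzyme levels was not tested, and in whole ovaries fewer cells of a type and less RNA per cell cannot be told apart.

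Red blood cells live on glycolysis, and control 3 carried more of their transcripts. The 7 erythroid markers summed to 1532.1 CPM there, against 109.1 to 225.2 CPM in PRP libraries and 108.5 and 143.8 CPM in controls 1 and 2. Pklr, the pyruvate kinase of liver and red blood cells, had 134 counts in control 3, against 1, 0 and 4 counts in PRP 1, 2 and 3 and 0 in controls 1 and 2. Without control 3 the log2 fold changes of Hk1 and Hk2 were 0.28 and 0.22, and 10 of 10 enzymes stayed above 0. Hk2 was highest in the library numbered 3 in both groups, at 30.4 CPM in PRP 3 and 29.2 CPM in control 3. With the replicate block and both libraries numbered 3 left out, the log2 fold change was 0.22 for Hk1 and 0.04 for Hk2. Whether red blood cells account for the high Hk1 of control 3 was not tested.

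No gene of the other lists of carbon metabolism passed in edgeR. Of 15 tested genes among 20 other glycolytic isoforms and steps, 12 had a log2 fold change above 0 (median 0.07) and 0 passed. Tpi1, which interconverts the triose phosphates, averaged 202.4 ± 7.48 CPM in PRP and 182.4 ± 8.6 CPM in control (SD, n = 3), with groups that did not overlap and a log2 fold change of 0.15 (0.01 to 0.29, adjusted p = 1 in edgeR). Ldhb averaged 809.6 ± 91.0 CPM in PRP and 724.4 ± 86.0 CPM in control, with a log2 fold change of 0.16 (-0.07 to 0.39). Within pairs it passed in DESeq2 (adjusted p = 0.0433) but not in edgeR (adjusted p = 0.157). DESeq2 filtered genes before adjusting and gave no adjusted p for Pfkl or Gapdh, so its value covers fewer genes than edgeR's. Aldoc, the brain aldolase, and Gpi1, the isomerase after hexokinase, had log2 fold changes of 0.32 (-0.12 to 0.77) and 0.07 (-0.06 to 0.20). Pgam1, the phosphoglycerate mutase, had 0.03 (-0.17 to 0.24) and Hk3, a minor hexokinase, -0.31 (-1.16 to 0.54).

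Genes that feed, brake or branch from glycolysis also had 0 passing members in either direction, with and without the block. The 5 regulators of phosphofructokinase, enzymes that set or lower fructose 2,6-bisphosphate, had a median log2 fold change of 0.02, with Tigar at -0.09 (-0.39 to 0.22), Pfkfb1 at -0.09 (-0.40 to 0.22) and Pfkfb4 at 0.12 (-0.32 to 0.57). Of 11 glucose and lactate transport genes 6 lay above 0 (median 0.02). Among these, Bsg, the chaperone of lactate transporters, had 0.10 (-0.04 to 0.24), Slc2a3, a high-affinity glucose transporter, 0.11 (-0.16 to 0.37) and Slc2a12 0.85 (-0.42 to 2.11) at a mean of 0.709 CPM in PRP and 0.393 CPM in control. In gluconeogenesis 4 of 6 tested genes lay above 0 (median 0.08), with Fbp1, a fructose bisphosphatase, at 0.21 (-0.25 to 0.68), Pcx, pyruvate carboxylase, at -0.08 (-0.30 to 0.13) and the phosphatase G6pc3 at 0.08 (-0.17 to 0.32).

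In the pentose phosphate pathway, which draws off glucose 6-phosphate for NADPH and ribose, 4 of 7 genes lay above 0 (median 0.02). Pgls, a lactonase, averaged 56.3 ± 3.64 CPM in PRP and 48.9 ± 1.57 CPM in control (SD, n = 3), with groups that did not overlap and a log2 fold change of 0.20 (0.03 to 0.38, adjusted p = 1 in edgeR). Tkt, transketolase, had 0.13 (-0.02 to 0.28) and Rpia, an isomerase, -0.11 (-0.31 to 0.09). Of 18 genes of the glycogen, glycerol, serine and hexosamine branches 8 lay above 0 (median -0.04). Phgdh and Psat1, the first enzymes of serine synthesis, had 0.08 (-0.05 to 0.22) and -0.12 (-0.36 to 0.12).

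**Figure D5:**
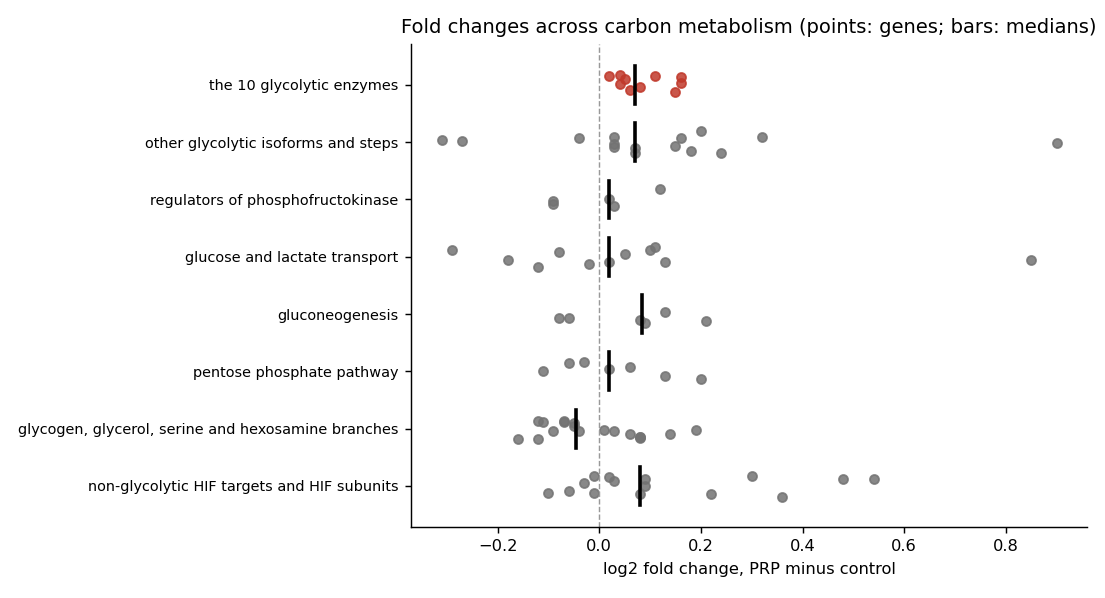
Log2 fold change, PRP minus control, without pairing (x axis) of every tested gene in the 10 enzymes (red) and in 7 other lists of carbon metabolism and HIF targets (grey), with black bars at list medians. The red points lie between 0.02 and 0.16, and list medians lie between -0.04 and 0.08.

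HIF targets outside glycolysis, which share a known regulator with the enzymes, had larger values in a few genes. Of 15 genes, HIF subunits included, 10 lay above 0 (median 0.08) and 0 passed in either fit. Car9, a carbonic anhydrase, averaged 15.9 ± 2.53 CPM in PRP and 11.3 ± 1.34 CPM in control (SD, n = 3), with a log2 fold change of 0.48 (0.13 to 0.84). Egln3, a prolyl hydroxylase that marks HIF for decay, had 0.30 (0.06 to 0.55) and Ankrd37 0.54 (0.08 to 1.01), each with an adjusted p of 1 in edgeR. These 3 had the smallest unadjusted p of their list.

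The HIF-1 binding core is ACGTG or GCGTG, and both were searched on both strands in the 250 bases before each RefSeq start (GRCm38.p6, 17 promoters of the 10 genes). At least 1 match stood before at least 1 start of all 10 genes, beside 11226 of all 27025 genes. A match was in 14 of 17 promoters (82.4%), against 38.6% of all 32851 promoters. Close starts of Eno1 and of Aldoa share the same matches, so these promoters are not separate observations. The enzymes' promoters were richer in G and C (median 62.8%, against 52.4%), and in all promoters within their range of GC content the share was 48.7%. ACGTG alone was in 35.3% of the enzymes' promoters and 16.6% of all. The match nearest to a start is shown for each gene because most of these genes are known HIF-1 targets, as 29 bases 5′ to 3′ along the gene's strand with every match in capitals. CACGT and CACGC are the same cores read on the other strand, and a core within CACGTG would also be a MYC E-box, which none of those shown is. The Ldha promoter does hold CACGTG, at -145 and at -48 from the start, and the window shown cuts into the nearer site. CACGTG was in 5.88% of the enzymes' promoters and 6.02% of all. The windows of Hk1 and Gapdh hold a further match.
Hk1 (chr10:62340422-62340450, minus strand): tggcactgtgccacCACGCGTGaccgcgc
Hk2 (chr6:82774490-82774518, minus strand): aatgagcacatcCACGTcactgtccgggg
Pfkl (chr10:78009890-78009918, minus strand): atttgtagactgGCGTGcgctccgccttt
Pfkp (chr13:6648778-6648806, minus strand): cgctcgggcgggGCGTGggcggctcctgc
Aldoa (chr7:126799364-126799392, minus strand): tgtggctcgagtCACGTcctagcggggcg
Gapdh (chr6:125165801-125165829, minus strand): caCACGCttggtGCGTGcacatttcaaaa
Pgk1 (chrX:106186957-106186985, plus strand): aaatggaagtagCACGTctcactagtctc
Eno1 (chr4:150237123-150237151, plus strand): ttggagtgatggCACGCtgagccaatggg
Pkm (chr9:59657140-59657168, plus strand): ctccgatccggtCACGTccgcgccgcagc
Ldha (chr7:46845758-46845786, plus strand): cgtgggttcccgCACGTccgctgggctcc
The cores lay between 12 and 131 bases before the start, in Hk1 (nearest) and Pgk1 (farthest). Those of Eno1, Gapdh, Hk1, Pfkl and Pfkp had GCGTG, and those of Hk2, Aldoa, Pgk1, Pkm and Ldha had ACGTG. Log2 fold changes ran from 0.04 (Hk1) to 0.16 (Eno1) in the first set and from 0.02 (Ldha) to 0.11 (Aldoa) in the second. For Ldha, the bases after the start used here were not found near the beginning of any GENCODE transcript of the gene. Its other start, where they were found, had GCGTG at -59. A match describes the letters of this window, and binding was not measured here.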

How the data were processed

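RNA of whole newborn mouse ovaries was sequenced in 3 PRP and 3 control libraries, and the authors deposited a table of raw read counts per gene, mapped to GRCm38/mm10 per the submitters' processing notes. The sources used here give neither the aligner and counter nor the annotation and strand setting. One PRP column has its letters transposed and was matched to PRP 3. The 10 enzymes and all lists were chosen with earlier results of these data known. Genes passing edgeR's filterByExpr (17475 of 27098) were fitted with TMM scaling and the robust quasi-likelihood test (R 4.3.3, edgeR 4.0.16), PRP minus control, without pairing, and p-values were Benjamini-Hochberg adjusted over all genes (threshold 0.05). The steps were tested on simulated data. The labels number the libraries 1 to 3 without saying what a number shares. Deviations from group means correlated across genes between equal numbers (r = 0.24, 0.398 and 0.334) and not between different ones (-0.0221 to -0.282), so a replicate block was fitted too. Within a group the deviations cancel out, so the negative values follow from the positive ones and are not separate evidence. DESeq2 1.42.0, limma-voom (limma 3.58.1), other filters and scaling, and leaving out each library were alternatives. CPM used TMM-scaled library sizes, and the TPM scale used the longest GENCODE M21 transcript (21144 genes with a length), with the median length and the longest coding transcript as alternatives. Promoters came from RefSeq GRCm38.p6. Besides the 10 enzymes, the genes named are, from each other pathway list, any that passed and the 3 with the smallest unadjusted p, the main other isoform of each step, and Eno1b. One gene that this rule takes is not reported here. Pklr was named after its values were seen.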

Additional observations from a re-analysis of the deposited data

How the results depend on the processing

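None of the 10 enzymes passed the threshold in any setting that gave an adjusted p. DESeq2 with the replicate block gave none for Hk1, Hk2, Pfkl, Pfkp and Gapdh, and its lowest among the other enzymes was 0.104 (Eno1). Of 210 alternative log2 fold changes of the enzymes, 196 kept their direction and 14 turned below 0, all of them with a library or pair left out. With a library left out, Hk1 ran from -0.09 to 0.28, Hk2 from -0.12 to 0.22, Pkm from -0.06 to 0.17 and Ldha from -0.06 to 0.12. With the replicate block and a pair left out, Hk1 ran from -0.05 to 0.22, Hk2 from -0.03 to 0.12, Pgk1 from -0.00 to 0.08 and Ldha from -0.01 to 0.06. The number of enzymes above 0 was 10, and 6 to 10 with a library left out, the lowest without PRP 3 and without control 2. It was 8 to 10 with the block and a pair left out. Among the other genes, those that turned with a library left out were Tigar (-0.18 to 0.02), Pfkfb4 (-0.01 to 0.26), Pfkm (-0.01 to 0.11), Eno1b (-0.28 to 0.81) and Pgam1 (-0.02 to 0.12). With the block and a pair left out, these were Pfkfb4 (-0.02 to 0.27), Pfkm (-0.03 to 0.12) and Pgam1 (-0.02 to 0.07). Ldhb passed in DESeq2 with the replicate block (adjusted p = 0.0433, adjusted over fewer genes than in edgeR). The number of genes called was 0 without pairing, also by DESeq2 and limma-voom (551 and 564 at an unadjusted p under 0.05). With the replicate block it was 21 in edgeR, 26 in limma-voom and 79 in DESeq2, 1 to 19 in edgeR with a pair left out, and 0 without robust estimation. The block in edgeR and limma-voom changed no call of an enzyme. The difference in summed level was 0.0105 percentage points and ran from 0.00281 to 0.0192 with a library left out. The highest mean level among the enzymes was 146.9 times the lowest with the longest transcript, 51.6 with the median length and 70.2 with the longest coding transcript. With 3 libraries a group, precision is limited to the intervals given.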
